A study of Homo sapiens with 8 samples.

Results

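The comparison described here is the knockdown of steroid receptor coactivator 1 (SRC-1) in A549 cells that were kept with glucose. A549 is an established human cell line derived from a lung adenocarcinoma. It was read from the 4 arrays titled as control siRNA or SRC-1 siRNA with glucose, 2 arrays per group, out of 8 arrays in the series. The other 4 arrays, titled with the same siRNAs without glucose, entered only the estimate of the spread. A small interfering RNA (siRNA) directs the cell to cut an mRNA that it matches. One group received a control siRNA and the other an siRNA against SRC-1, both delivered with the lipid reagent DharmaFECT 1. Both were then held for 36 h in medium with 10% dialyzed fetal calf serum, which is depleted of small molecules, and given DMEM with glucose and the same serum. The groups thus shared the line, the transfection, the serum and the glucose, and differed by the labels only in the siRNA. No untransfected cells are among the groups. The sequence and number of the siRNAs and the length of the last step are not given in the sources used here. Arrays of the same group are labelled as biological replicates, with nothing on separate cultures, and every p-value below rests on the variation among these arrays alone.

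SRC-1, encoded by NCOA1, belongs to the p160 family of coactivators. It binds nuclear receptors that have bound their ligand, and some other transcription factors such as AP-1, and recruits the acetyltransferases CREBBP and EP300 and the methyltransferase CARM1, which open chromatin at target genes. It carries no DNA-binding activity of its own, so its effect on a gene depends on the factors present. In metabolic tissues it is known for its part in the control of glucose production and energy balance by nuclear receptors. The title of the series links SRC-1 to glucose and to the NAD(+)/NADH balance. NAD(+) is reduced to NADH in glycolysis and the TCA cycle, and NADH is oxidised again mainly by respiratory complex I. The comparison asks which transcripts depend on SRC-1 while glucose is present.

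The arrays carried the markers of the line. AKR1B10 and AKR1C1, reductases that are very abundant in A549 cells, read between 14.38 and 14.50 on the log2 scale on the 4 arrays, and the epithelial keratin KRT18 between 14.33 and 14.36. Of the markers of other cell types, 6 of 10 for fibroblasts, 4 of 7 for endothelial cells and 3 of 10 for immune cells passed the limit of 4.80 that was set for a gene to be tested. The collagen gene COL1A1 read between 7.74 and 8.01 and ACTA2 between 7.86 and 7.98, while COL1A2 read between 4.03 and 4.17. The endothelial marker CDH5 read between 3.32 and 3.46 and the leukocyte marker PTPRC between 3.04 and 3.42. None of these tested markers was called, and VWF and ITGAM had an unadjusted p below 0.05. These were 1 of 4 tested endothelial markers (25%) and 1 of 3 tested immune markers (33.3%), with 0 of 6 for fibroblasts. The share over all genes was 5.75%. VWF read 5.53 and 5.60 on the control arrays and 5.30 and 5.42 on the SRC-1 siRNA arrays (-0.20 ± 0.069), and ITGAM 4.95 and 4.79 against 4.99 and 5.37 (0.31 ± 0.13). The part of other cell types in the results was not tested. None of the 16 tested epithelial and A549 markers was called, and their differences lay between -0.13 and 0.12. The surfactant genes SFTPB and SFTPC read between 5.98 and 6.23 and between 7.48 and 7.61, and the lung factor NKX2-1 between 5.85 and 6.08. Correlations of log2 signal over the 13584 genes tested were 0.997 between the 2 control arrays and 0.997 between the 2 SRC-1 siRNA arrays, and between 0.997 and 0.998 across the groups. The 3' to 5' signal difference of the control probe sets, a reading of RNA quality, lay between 0.14 and 0.17 for GAPDH and between 0.51 and 0.64 for beta-actin on the 4 arrays. It differed between the groups by -0.021 for GAPDH and -0.018 for beta-actin, and the exact two-sided permutation p was 0.333 and 0.667, where 0.333 is the smallest that 2 arrays against 2 allow.

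The targeted mRNA was strongly reduced. On its brightest probe set NCOA1 read 8.60 and 8.42 on the control arrays and 5.47 and 5.18 on the SRC-1 siRNA arrays, a fall of 9.10-fold (-3.19 ± 0.11, SE, n = 2 per group, 95% interval -3.44 to -2.94, limma adjusted p = 1.44e-05). Every control array lay above every SRC-1 siRNA array. The second probe set read 7.93 and 8.12 against 5.67 and 5.84, and the third, whose name ends in _x_at, had means of 7.48 ± 0.026 and 5.29 ± 0.41 (SD). The dimmest read 6.53 and 6.44 against 3.80 and 3.91. All 4 probe sets fell, by between 4.57-fold and 9.10-fold, and in a fit over all 41091 probe sets with a single gene their adjusted p lay between 1.51e-05 and 0.0211. The SRC-1 siRNA arrays stood farthest apart on the third. What is left of the signal lies near the dim range of the arrays, where folds are compressed. The arrays average over the dish, so fewer cells with the mRNA and less mRNA per cell cannot be told apart, and SRC-1 protein was not analysed here.

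**Figure D1:**
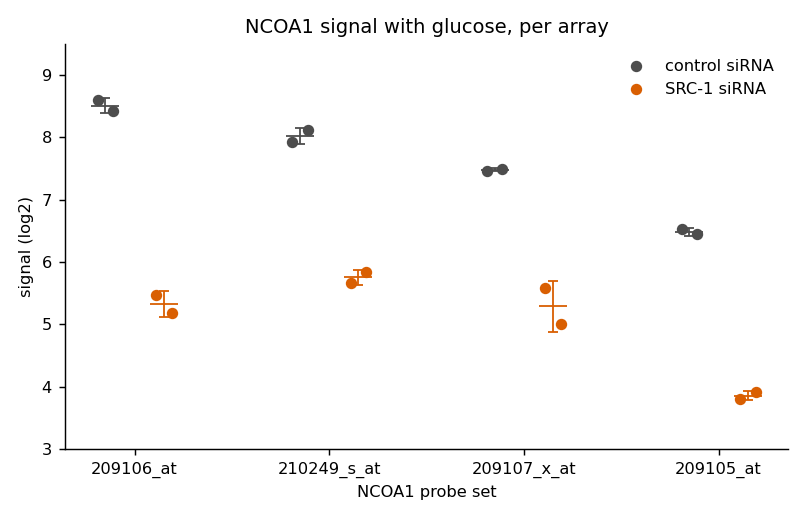
Signal of the 4 NCOA1 probe sets on each array with glucose (vertical axis, log2 signal; horizontal axis, probe set). Points are arrays, short bars the mean of 2 arrays and whiskers 1 SD. On each probe set both SRC-1 siRNA arrays lie below both control arrays.

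Beyond the target, no gene was called. Of 13584 genes, 1 was called (0.00736%), which means an adjusted p below 0.05 in limma after Benjamini-Hochberg adjustment, and that gene was NCOA1. The 4 probe sets called in the fit over all probe sets (0.00973%) were the 4 of NCOA1. An unadjusted p below 0.05 was reached by 781 genes (5.75%), 475 higher after knockdown (3.50%) and 306 lower (2.25%). Of the 6 ways to split 4 arrays into 2 and 2, a share of 0.333 keeps the groups apart for any gene without ties. Both SRC-1 siRNA arrays lay on the same side of both control arrays for 4413 genes (32.5%), 2772 higher (20.4%) and 1641 lower (12.1%). That lean to the higher side moved with the scaling of the arrays. Among genes whose groups did not overlap, 62.8% were higher on the deposited scale, 50.9% after quantile normalization and 69.8% after centring on array medians. Among genes with an unadjusted p below 0.05 these shares were 60.8%, 51.4% and 68.4%.

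Differences were small as well as uncalled. The median size of a difference, in either direction, was 0.063 on the log2 scale. Only 337 genes (2.48%) differed by at least 1.2-fold with groups that did not overlap, and 3 (0.0221%) by at least 1.5-fold. These were NCOA1, DHRS2 at 1.52-fold higher and the long noncoding transcript MRNIP-DT at 1.69-fold higher. MRNIP-DT read 4.46 and 3.92 on the control arrays and 4.92 and 4.98 on the others, with control arrays far apart, and its adjusted p was 0.832.

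**Figure D2:**
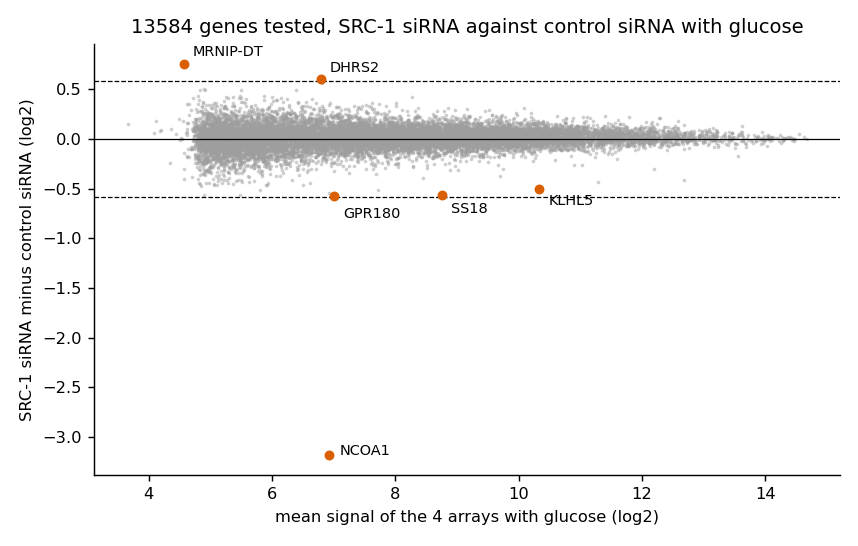
Difference between SRC-1 siRNA and control siRNA with glucose (vertical axis, log2) against mean signal of the 4 arrays (horizontal axis, log2) for 13584 genes. Each grey point is a gene, orange points are named, and dashed lines mark 1.5-fold; NCOA1 stands alone at -3.19.

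A p that misses the threshold does not show that a gene did not differ, so the intervals were read as well. The 95% interval of a difference reached, by the median, 0.19 to either side, a fold of 1.14. The interval lay wholly within 1.5-fold in either direction for 13331 genes (98.1%), within 1.2-fold for 6737 (49.6%) and within 2-fold for 13579 (100% after rounding). Outside 1.5-fold, so that a change of that size is left possible, were 253 genes, NCOA1 among them. These are intervals of single genes, with no adjustment for their number, and they refer to signals on the array, which compress changes of dim transcripts. Precision grew with signal. With the genes divided by signal into 4 bins of 3396, the median SE in the dimmest bin was 0.10 and 94.7% of intervals lay within 1.5-fold, and in the brightest bin the median SE was 0.072 and 99.8% did. Genes with an unadjusted p below 0.05 were also more common at low signal, with 339, 257, 132 and 53 in the 4 bins from dim to bright. With a prior variance that follows the signal the counts were 176, 206, 163 and 183.

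The genes with the smallest p below the control level were examined next. None beside NCOA1 passed, and their values are given as a description. SS18, a subunit of the BAF chromatin remodelling complex, read 8.99 and 9.08 on the control arrays and 8.46 and 8.49 on the SRC-1 siRNA arrays, a difference of -0.56 ± 0.066 (95% interval -0.71 to -0.41, adjusted p = 0.150). Its 3 further probe sets past the filter differed by -0.54, -0.30 and -0.17. SS18 was called with the 60th percentile filter (adjusted p = 0.0338) and with the prior that follows the signal (0.00511). Over all alternatives its adjusted p lay between 0.00511 and 0.948, the highest when only the 4 arrays with glucose were fitted.

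KLHL5, a kelch-family protein, was the brightest of these genes. It read 10.54 and 10.63 on the control arrays and 10.13 and 10.03 on the SRC-1 siRNA arrays (-0.50 ± 0.084, adjusted p = 0.316). With the prior that follows the signal it was called (adjusted p = 0.0131), and it was not called with any other alternative. Another 3 of its probe sets differed by -0.31, -0.36 and -0.38, and 1 went the other way (0.25). GPR180, an integral membrane protein, read 7.31 and 7.28 against 6.76 and 6.67 (-0.58 ± 0.096, adjusted p = 0.316), and its other probe set past the filter differed by -0.48. Another 4 that were too dim to pass differed by -0.32, -0.15, -0.099 and 0.12. For SS18, KLHL5 and GPR180, chosen on p, the groups did not overlap on the brightest probe set, as for 32.5% of all genes.

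MLXIPL, which encodes the sugar-sensing factor ChREBP, read 5.36 and 5.32 on the control arrays and 4.79 and 4.95 on the SRC-1 siRNA arrays (-0.47 ± 0.076, adjusted p = 0.316). Its signal lay at the 43.8th percentile of probe sets, close to the limit for testing. LHX6, a LIM homeobox factor, differed by -0.56 ± 0.094, but its other probe set past the filter by 0.074. The coagulation-related protein Z gene PROZ (-0.40), the dipeptidase DPEP3 (-0.46), the myosin light chain gene MYL10 (-0.46), TRARG1, a regulator of glucose transporter traffic in fat cells (-0.45), and LSMEM2 (-0.35) completed the set. A probe set assigned to MIRLET7D differed by -0.47, which is a signal from longer transcripts and not from the mature microRNA. All had an adjusted p between 0.150 and 0.427.

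Above the control level, DHRS2 had the smallest p. It encodes a short-chain dehydrogenase/reductase, a class of enzymes that use NAD(H) or NADP(H). It read 6.46 and 6.51 on the control arrays and 7.16 and 7.02 on the SRC-1 siRNA arrays (0.60 ± 0.083, 95% interval 0.42 to 0.79, adjusted p = 0.299), and its second probe set differed by 0.29. C9orf72, which acts in vesicle traffic and autophagy, read 6.36 and 6.67 against 7.09 and 7.09 (0.57 ± 0.10, adjusted p = 0.353). Its other probe set past the filter differed by -0.075, so the 2 did not go the same way. CREBRF, a regulator of the CREB3 stress factor, read 5.34 and 5.14 against 5.67 and 5.81 (0.50 ± 0.090), with 0.37 and 0.012 on the 2 others past the filter and 0.28 and -0.20 on 2 dimmer ones.

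The forkhead repressor FOXN3 had means of 8.05 ± 0.077 and 8.48 ± 0.084 (SD, n = 2) in the control and SRC-1 siRNA groups (0.42 ± 0.072, adjusted p = 0.316), while its 5 other probe sets past the filter lay between 0.016 and 0.16. The noncoding BTG1-DT differed by 0.49, FGF14-AS2 by 0.50 and NNT-AS1 by 0.40. NNT-AS1 is named as antisense to NNT, the nicotinamide nucleotide transhydrogenase that passes hydride between NADH and NADP(+). On its brightest probe set NNT itself differed by 0.044 ± 0.072. The NNT difference lay between 0.022 and 0.21 over the alternatives, and between 0.022 and 0.066 with an array left out. The adaptor SH2B2 (0.41), the hyaluronan-binding CEMIP (0.49), the hormone relaxin gene RLN2 (0.34), PLCXD3 (0.35) and the zinc finger gene ZFP69B (0.41) had the remaining places. The highest adjusted p among them was 0.607.

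The 23 genes, chosen on p, differed by between 1.26-fold and 1.52-fold, and 14 of them stood in the dimmest of the 4 signal bins against 1 in the brightest. Probe sets of a gene share their arrays and are no replicates of the knockdown. Leaving out each of the 4 arrays in turn kept the direction and an unadjusted p below 0.05 for all 24 genes, NCOA1 included, which were chosen on the same arrays. With probe sets ending in _s_at or _x_at left out, 19 of 20 genes kept their direction and 18 an unadjusted p below 0.05. C9orf72 then turned to -0.075, and CEMIP was at 0.069. With probe sets averaged within each gene 23 of 24 kept an unadjusted p below 0.05, and FOXN3, at 0.14, did not.

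**Figure D3:**
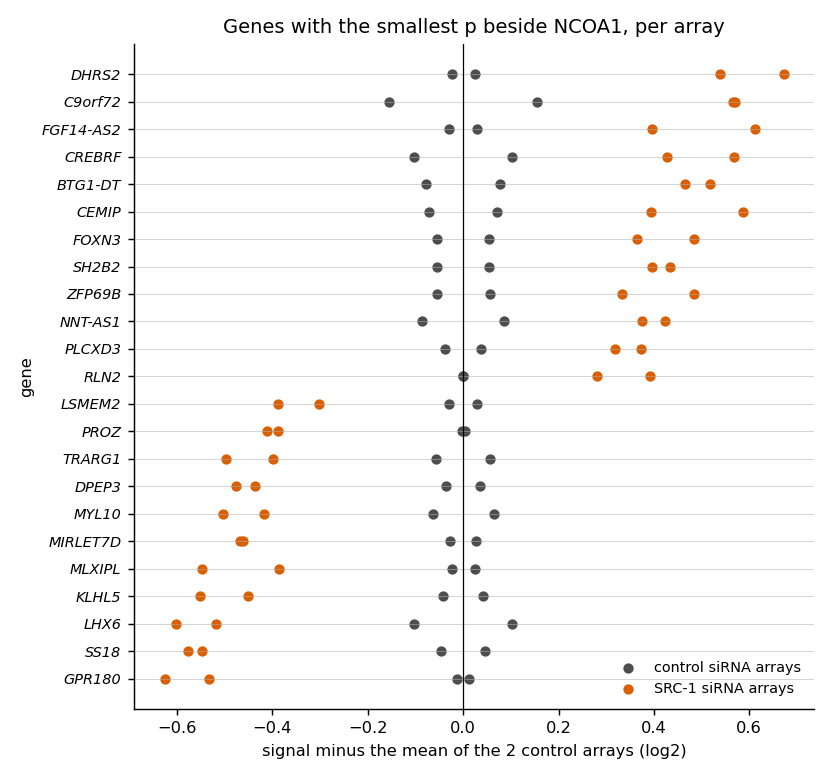
Signal on each array minus the mean of the 2 control arrays (horizontal axis, log2) for the 23 genes with the smallest p beside NCOA1 (vertical axis). Grey points are control arrays and orange points SRC-1 siRNA arrays. For all 23 genes, chosen on p from these same arrays, the groups do not overlap, as for 32.5% of all genes. None passed an adjusted p of 0.05.

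Gene lists from textbook membership were then described by their counts and medians. The lists were chosen with earlier results of these data known, so the shares of their members below are a description and no test. Over all genes tested the median difference was 0.016, with 7821 genes above 0 and 5763 below. None of the 811 genes tested in the 26 lists, which leave NCOA1 out, was called. The 95% interval lay within 1.5-fold for 805 of them and within 2-fold for all. The 6 exceptions were the immediate early factor FOS, the arrestin ARRDC4, NFKBIZ, the cell cycle factor E2F2, MLXIPL and TKFC. FOS had the widest interval, from -0.92 to 0.72, around a difference of -0.099, and its control arrays read 4.50 and 4.99.

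The partners of SRC-1 were read first. Of 36 coregulators tested the median difference was 0.016. An unadjusted p below 0.05 was reached by 0 on the higher side and 1 on the lower side, 2.78% against 5.75% of all genes. That gene was NCOA6, a coactivator of nuclear receptors in histone methyltransferase complexes, which read 9.04 and 9.03 on the control arrays and 8.83 and 8.62 on the SRC-1 siRNA arrays (-0.31 ± 0.095, adjusted p = 0.832). Its other probe set was too dim to be tested among genes and went the other way (0.42). NCOA2, the close relative of SRC-1, read 9.45 and 9.51 against 9.63 and 9.37 (95% interval -0.21 to 0.25). The acetyltransferases that SRC-1 recruits differed by -0.047 ± 0.089 for CREBBP and 0.036 ± 0.18 for EP300, and the methyltransferase CARM1 by 0.048 ± 0.097. KAT2B, another acetyltransferase, had the largest difference above 0 in the list (0.28 ± 0.13).

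No nuclear receptor or target was called. Of 30 receptors tested, 22 lay above 0 and 8 below, with a median of 0.040. ESRRB, an orphan receptor, read 5.93 and 5.93 against 5.60 and 5.68 (-0.29 ± 0.063, adjusted p = 0.635) and was dim. Its difference lay between -0.33 and -0.073 over the alternatives, and between -0.33 and -0.25 with an array left out. The glucocorticoid receptor NR3C1 read 11.58 and 11.60 against 11.71 and 11.58 (0.056 ± 0.076), and the energy-related receptor ESRRA differed by 0.088 ± 0.11. Among 21 glucocorticoid receptor targets the median was 0.014, FKBP5 differed by -0.075 ± 0.096 and TSC22D3 by 0.10 ± 0.064. TFCP2L1 differed by 0.28 ± 0.097 with an unadjusted p below 0.05. In the list of AP-1, ETS and other partner factors, 24 genes had a median of 0.021. ETV4, an ETS factor, read 6.83 and 6.74 against 6.93 and 7.03 (0.19 ± 0.082), and its groups did not overlap.

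Respiratory complex I, the NADH dehydrogenase of the inner mitochondrial membrane, was covered by 47 of 51 listed subunits and assembly factors. None was called, and 0 had an unadjusted p below 0.05, against 5.75% of all genes and 3.89% and 1.56% of those in the 2 brighter signal bins, which hold all members but ECSIT. Differences ran from -0.084 for NDUFS4 to 0.14 for ECSIT, with a median of 0.015, 29 above 0 and 18 below. The 95% interval lay within 1.2-fold for 42 of the 47. That precision was reached by 49.6% of all genes and by 62.1% and 77.6% of those in the 2 brighter signal bins. The farthest bound of any member was 1.26-fold. All 47 members lay above the 75th percentile of signal over all probe sets with a single gene, and intervals are narrower at higher signal. Members without a probe set tied to them alone were not analysed here.

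Of the catalytic core, which carries electrons from NADH through iron-sulfur clusters, 5 members were tested. NDUFV1, which binds NADH and the flavin, read 10.51 and 10.58 on the control arrays and 10.57 and 10.75 on the SRC-1 siRNA arrays (95% interval -0.075 to 0.30). NDUFV2 read 10.90 and 10.96 against 10.91 and 10.91 (-0.18 to 0.13). NDUFS1, the largest subunit of the peripheral arm, read 9.75 and 9.91 against 9.80 and 9.82 (-0.19 to 0.15). In each the arrays of the 2 groups overlapped. NDUFS3 (-0.013 ± 0.073) and NDUFS7 (-0.013 ± 0.067) overlapped likewise. The accessory subunit NDUFB6 read 12.03 and 12.18 against 12.23 and 12.23, and NDUFS4 read 10.19 and 10.20 against 10.09 and 10.13. Both were among the 18 members whose groups did not overlap, 12 higher and 6 lower, or 38.3% of members against 32.5% of all genes.

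**Figure D4:**
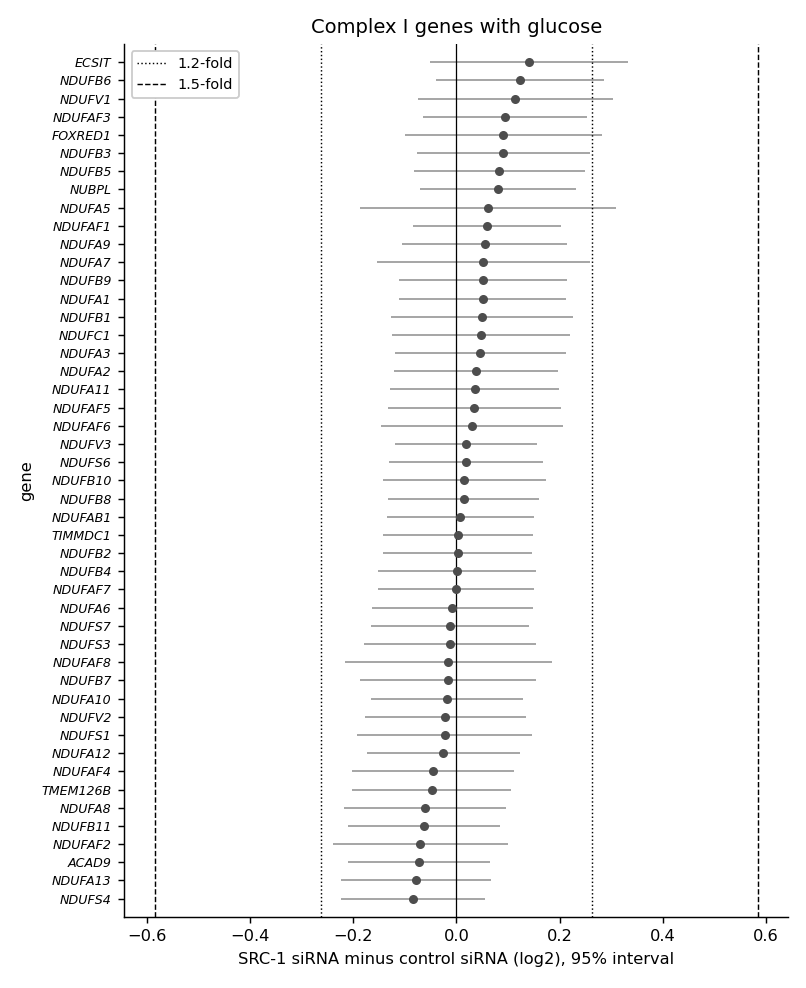
Differences between SRC-1 siRNA and control siRNA with glucose (horizontal axis, log2) for the 47 tested complex I subunits and assembly factors (vertical axis). Points are differences of 2-array means and grey bars 95% intervals; dotted lines mark 1.2-fold and dashed lines 1.5-fold, and no interval goes past 1.26-fold.

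The rest of the respiratory chain was as narrow. Of 40 genes of complexes II to V, none had an unadjusted p below 0.05, against 5.75% of all genes. In the 2 brighter signal bins 3.89% and 1.56% of genes had it. The median was 0.034 and the farthest bound was 1.21-fold, for COX7A2. Regulators of mitochondrial biogenesis had a median of 0.0057 over 21 genes, and PPARGC1B, a PGC-1 family coactivator, differed by 0.0057 ± 0.12. The mitochondrial ribosome had 40 genes above 0 and 35 below, with a median of 0.0057. MRPS15 (-0.15 ± 0.072) and MRPS10 (0.18 ± 0.090) marked its ends.

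Genes of NAD synthesis and use had 1 of 36 members with an unadjusted p below 0.05 (2.78%, against 5.75% of all genes). That gene was NMRK1, a nicotinamide riboside kinase, which read 7.11 and 7.14 on the control arrays and 7.36 and 7.29 on the SRC-1 siRNA arrays (0.20 ± 0.064, 95% interval 0.055 to 0.35, adjusted p = 0.832). NAMPT, the rate-limiting enzyme of NAD salvage, read 11.52 and 11.61 against 11.69 and 11.50, and its groups overlapped (95% interval -0.20 to 0.26). NMNAT1, which makes NAD in the nucleus, differed by 0.053 ± 0.076, and NADK, which makes NADP from NAD, by 0.048 ± 0.062. The NAD-consuming deacetylase SIRT1 differed by -0.019 ± 0.12 and the polymerase PARP1 by 0.0074 ± 0.071. NMNAT3, the mitochondrial form, had the largest difference of the list (0.23 ± 0.11), and SIRT5 the bound farthest from 0 (interval -0.16 to 0.54).

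The NADH shuttles, which carry reducing equivalents into mitochondria, had a median of 0.024 over 24 genes. The cytosolic glycerol phosphate dehydrogenase GPD1 read 5.15 and 5.23 against 4.88 and 5.01 (-0.24 ± 0.10) at a dim signal. The mitochondrial oxoglutarate carrier SLC25A11 read 9.20 and 9.28 against 9.40 and 9.41 (0.16 ± 0.069). Its difference lay between 0.046 and 0.20 over the alternatives, and between 0.12 and 0.20 with an array left out. The cytosolic aspartate aminotransferase GOT1 differed by 0.10 ± 0.065. In each of these genes, named for a small p, the groups did not overlap, as in 45.8% of the list and 32.5% of all genes. Their adjusted p lay between 0.862 and 0.944.

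The TCA cycle and pyruvate dehydrogenase list had a median of 0.057, next to 0.056 for lipid synthesis, with 23 of 28 members above 0. Among the 28, 5 (17.9%) had an unadjusted p below 0.05, all higher, where the background for higher genes was 3.50%. None was called. MPC1, a subunit of the carrier that brings pyruvate into mitochondria, read 7.47 and 7.66 on the control arrays and 7.82 and 7.81 on the SRC-1 siRNA arrays (0.25 ± 0.078). OGDH, of the oxoglutarate dehydrogenase complex, read 7.26 and 7.06 against 7.37 and 7.41 (0.23 ± 0.078), and pyruvate carboxylase, PC, read 6.95 and 7.09 against 7.27 and 7.21 (0.22 ± 0.076). The phosphatase PDP1, which switches pyruvate dehydrogenase on, differed by 0.18 ± 0.074. The kinase PDK4, which switches it off, read 10.03 and 10.15 against 10.31 and 10.32 (0.23 ± 0.098). Their adjusted p lay between 0.832 and 0.865. Over the alternatives its median ran from 0.035, with quantile normalization, to 0.11, without control array 2.

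Glycolysis and glucose uptake had 1 of 33 genes with an unadjusted p below 0.05 (3.03%, against 5.75% of all genes), the phosphofructokinase PFKL (0.16 ± 0.067). The PFKL difference lay between 0.050 and 0.19 over the alternatives, and between 0.14 and 0.19 with an array left out. The list median was 0.028. The glucose transporter SLC2A1 read 9.30 and 9.45 against 9.36 and 9.37, and the hexokinase HK2, which takes the first step of glycolysis, 5.24 and 5.11 against 5.39 and 5.07. Both pairs of groups overlapped.

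The genes around the sugar sensors MondoA and ChREBP were few and mostly dim. Of 13 tested, 2 had an unadjusted p below 0.05 on the higher side and 2 on the lower side, 30.8% in all against 5.75% of all genes. MLXIPL, also among the genes chosen above on p, and GPD1 were the lower ones. ARRDC4 read 5.14 and 4.67 on the control arrays and 5.21 and 5.33 on the SRC-1 siRNA arrays (0.36 ± 0.14), and TKFC, a triose and dihydroxyacetone kinase, 6.29 and 6.18 against 6.66 and 6.52 (0.36 ± 0.11). TXNIP, the best known target of both factors, read 6.06 and 6.05 against 6.23 and 6.00, and its groups overlapped.

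Lipid genes lay slightly above 0. Of 24 genes of fatty acid oxidation, 20 lay above 0, with a median of 0.052, and CPT2, a mitochondrial carnitine palmitoyltransferase, read 7.84 and 7.80 against 8.06 and 8.01 (0.21 ± 0.068). CPT1A, the entry enzyme, differed by -0.11 ± 0.091. Of 30 genes of fatty acid and cholesterol synthesis, 26 lay above 0, with a median of 0.056. An unadjusted p below 0.05 was reached by 2 (6.67%, against 5.75% of all genes). These were the sterol regulator INSIG2 (0.20 ± 0.069) and MSMO1, a sterol oxidase (0.21 ± 0.087). FASN differed by 0.065 ± 0.065. None was called.

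Among 36 genes of ER chaperones and ER-associated degradation an unadjusted p below 0.05 was reached by 2 (5.56%, against 5.75% of all genes), the prolyl isomerase FKBP14, which read 8.62 and 8.69 against 8.96 and 8.92 (0.28 ± 0.063, adjusted p = 0.639), and the stress sensor ERN1 (0.27 ± 0.11). HSPA5, the main chaperone of the ER, read 12.61 and 12.62 against 12.77 and 12.74 (95% interval -0.0077 to 0.28). Of 33 genes in the ATF4 and CHOP branch it was reached by 0, and DDIT3 read 7.30 and 7.52 against 7.39 and 7.42. The asparagine synthetase ASNS differed by 0.072 ± 0.073. Of 21 p53 targets it was reached by 0, and the cell cycle inhibitor CDKN1A differed by 0.038 ± 0.062 (95% interval -0.10 to 0.18).

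Cell cycle genes had no member past an unadjusted p of 0.05, against 5.75% of all genes. From the dimmest to the brightest signal bin, 9.98%, 7.57%, 3.89% and 1.56% of genes reached it. The median was 0.028 over 45 G1/S and DNA replication genes and 0.014 over 40 G2/M genes. CCNE2, a cyclin of S phase entry, read 8.39 and 8.52 against 8.51 and 8.43 on its brightest probe set, where its groups overlapped. Its difference lay between -0.055 and 0.20 over the alternatives, and between -0.055 and 0.071 with an array left out. E2F2 read 7.79 and 7.78 against 7.62 and 7.35 (-0.30 ± 0.16), with 1 SRC-1 siRNA array farther from the controls than the other. The proliferation marker MKI67 differed by -0.11 and had the farthest bound of the mitotic list, 1.32-fold.

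Responses that an siRNA could set off by itself were listed too. Among 27 interferon-stimulated and RNA-sensing genes tested, the median was 0.012, with 14 above 0 and 13 below. IFIT1, an early interferon response gene, read 5.60 and 5.45 on the control arrays and 5.95 and 5.55 on the SRC-1 siRNA arrays, and its groups overlapped. USP18 differed by 0.15 ± 0.061 and SAMD9 by -0.25 ± 0.10, both with an unadjusted p below 0.05 (7.41% of the list, against 5.75% of all genes). Of 16 genes of the RNA interference machinery, AGO3 (0.22 ± 0.071) and AGO4 (0.23 ± 0.092) had an unadjusted p below 0.05 (12.5%, against 5.75% of all genes). AGO2, the slicer that carries out siRNA cutting, differed by 0.098 ± 0.086. Both groups were transfected with an siRNA, so a response common to both would not show in this comparison.

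Inflammatory genes went both ways. Of 21 NF-kappaB targets and cytokines, 3 had an unadjusted p below 0.05 on the higher side and 1 on the lower side, 19.0% in all against 5.75% of all genes. The chemokine CXCL8 read 7.62 and 7.75 against 7.95 and 7.96 (0.26 ± 0.091), CSF3 5.07 and 5.24 against 5.45 and 5.35 (0.24 ± 0.089) and the NF-kappaB subunit RELB 5.60 and 5.69 against 5.75 and 5.87 (0.16 ± 0.069). The cytokine IL11 read 7.13 and 7.03 against 6.85 and 6.83 (-0.24 ± 0.072). In all 4 the groups did not overlap, as in 61.9% of the list and 32.5% of all genes, and none had an adjusted p below 0.832. TGF-beta and YAP targets had a median of 0.0071 with 0 of 24 past an unadjusted p of 0.05, lysosome and autophagy genes 0.0091 with 1 of 29, ULK1 (-0.24 ± 0.095), and cytosolic ribosomal proteins -0.0064 with 0 of 50. That p was reached by 5.75% of all genes, and by 9.98%, 7.57%, 3.89% and 1.56% of those in the 4 signal bins from dim to bright.

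**Figure D5:**
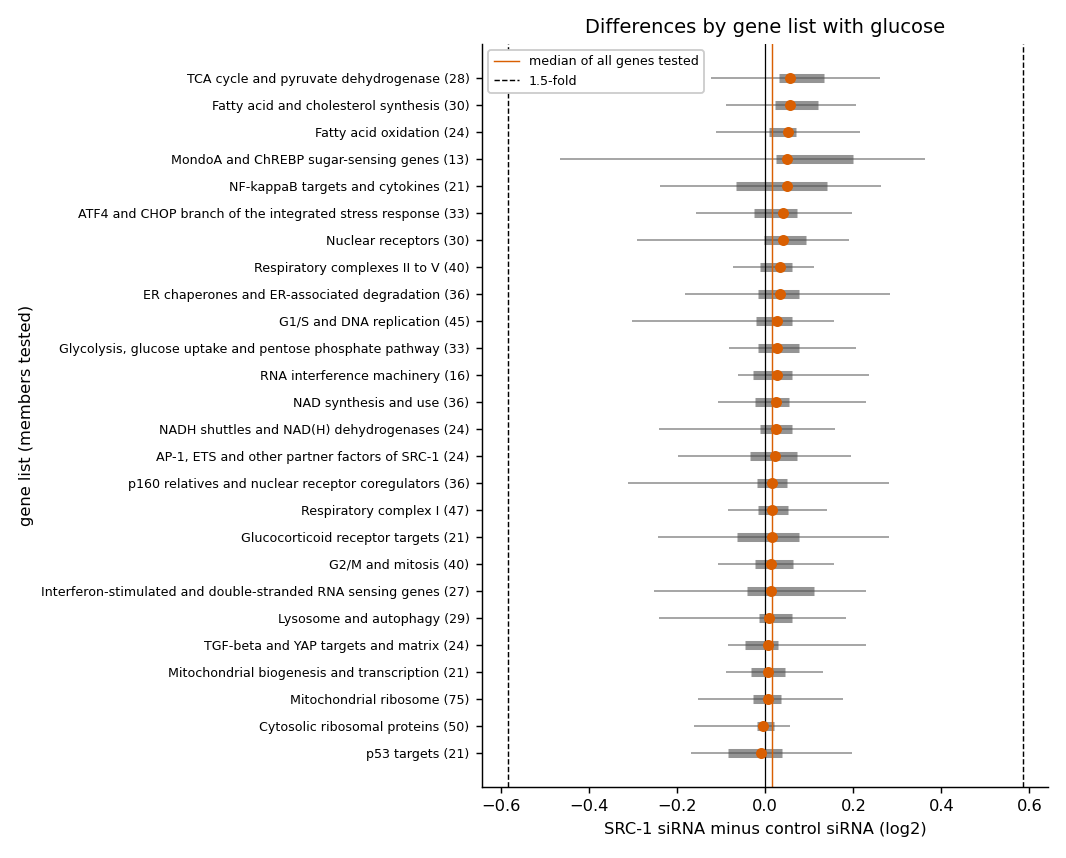
Differences between SRC-1 siRNA and control siRNA with glucose (horizontal axis, log2) for 26 gene lists (vertical axis, with the number of members tested, NCOA1 left out). Orange points are list medians, thick bars the range from the 25th to the 75th percentile, thin lines the full range and the orange line the median of all genes tested; list medians lie between -0.0095 and 0.057.

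The sign of some list medians depended on the setting. Quantile normalization turned the sign of 9 of the 26 medians, complex I and NAD genes among them, and centring on array medians turned 2. The medians of 10 lists stayed above 0 under every alternative, among them the TCA cycle, fatty acid oxidation, lipid synthesis and complexes II to V. The largest list median under any alternative was 0.11 in size.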

How the data were processed

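The deposited table holds 54675 probe sets for 8 Affymetrix arrays. The deposited values were taken as log2 signals made by the authors: no source used here states the scale, and the base was inferred from the spacing of the hybridization spikes. Array medians were nearly equal, and the method of background correction, summarization and normalization is not stated in those sources. No scanner files or detection calls were used, and precision is limited by having 2 arrays per group. The supplied annotation ties 41091 probe sets to 1 gene, 1801 to several (not named) and lists no gene for 11721; 41037 of the 41091 matched RefSeq (GRCh38.p14) by Entrez identifier. Probe sets below the 40th percentile of mean signal (4.80) were left out and the brightest probe set kept per gene, leaving 13584 genes. All 8 arrays entered 1 limma fit (limma 3.58.1, R 4.3.3) with a mean per group, 4 residual and 4.35 prior degrees of freedom, two-sided moderated tests, Benjamini-Hochberg adjustment and a threshold of 0.05. Genes named are NCOA1, a set of genes chosen by function, the 12 smallest p and 5 largest non-overlapping differences in each direction, and up to 4 members of a list. Members, lists and rules were chosen with earlier results of these data known. Alternatives were another scaling, filter, probe set rule, prior or array weights, a fit of 4 arrays, a replicate block, each array left out, and a test against 1.2-fold. The fit was tested on simulated data. Same-numbered arrays with glucose were checked for pairing: their deviations from group means correlated at 0.045 across genes, so the number was not used as a block. Pairing of the arrays without glucose was not checked.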

Additional observations from a re-analysis of the deposited data

How the results depend on the processing

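NCOA1 was called under every alternative, with differences between -3.33 and -2.57. The count of called genes was 1 except with the 60th percentile filter (2, SS18 added) and with a prior that follows the signal (3, SS18 and KLHL5 added). Called probe sets numbered 3 to 6. Genes with an unadjusted p below 0.05 numbered 553 with the 60th percentile filter and 1160 with no filter, where fewer and more genes were tested. Over the same 13584 genes the count shifted too, to 645 with array weights and 646 when only the 4 arrays with glucose were fitted. It also shifted when single arrays were left out. With a replicate block 1 gene was called and 808 had an unadjusted p below 0.05, against 781 without it; same-numbered arrays share only a number, and the block changed no call. The complex I median moved to -0.0066 with quantile normalization and lay between 0.0025 and 0.038 when an array was left out, highest without control array 2. Non-overlapping genes numbered 8648 to 9368 with an array left out, since 1 array against 2 overlaps less often by construction. For the other alternatives and results the cause of a shift was not tested. With 1 array left in a group, that array was assumed to vary like the others. Both low signal and the number of arrays limit precision: the interval lay within 1.5-fold for 94.7% of genes in the dimmest of 4 signal bins and, with an array left out, for 93.9% to 94.9% of all genes. Leaving out probe sets ending in _s_at or _x_at turned C9orf72 to -0.075.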

Other observations

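Genes read by more than 1 probe set were looked at after the results were seen. Of 6456 such genes, with NCOA1 left out, 21 had an unadjusted p below 0.05 on at least 2 probe sets that were higher and 13 on at least 2 that were lower, while 17 had it in opposite directions and 666 on exactly 1 probe set. PGGT1B, the beta subunit of a prenyltransferase that modifies small GTPases, differed by -0.27, -0.29 and -0.21 on its 3 probe sets. TK2, the mitochondrial thymidine kinase, differed by 0.20, 0.28 and 0.26. The laminin receptor subunit ITGA6 differed by 0.31 and 0.22, and the xenobiotic-metabolising CYP1B1 by 0.31, 0.22 and 0.085. POLH, a polymerase that copies past DNA damage, differed by -0.40, -0.33, -0.30 and -0.17 on 4 probe sets and by 0.073 on the fifth. The natriuretic peptide receptor NPR3 differed by -0.28, -0.17 and -0.32. None of these probe sets passed an adjusted p of 0.05 over the 41091 probe sets, and probe sets of a gene share their arrays.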
